A study of Rattus norvegicus with 65 samples.

Results

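The genes described here were the 200 protein-coding genes with the largest combined exon length among 14255 candidates in the hypothalamus of rats. The combined exon length of a gene is the number of bases covered by all of its annotated exons after overlaps are merged, so it measures how much sequence all transcripts of the gene hold together and not how long any single exon is. Candidates were the protein-coding genes with a mean of at least 50 counts per library, after 198 genes with symbols starting with Gri, Grm, Gabr, Col, Kcn, Scn or Cacn were left out. The choice used the length and the mean count over all libraries and no difference between groups. The chosen genes ran from 103958 bases in Ttn down to 13823 bases in Adgrl3, and the first gene outside was Klhl25 with 13820 bases. Their median length was 15697 bases, compared with 3078 bases over all candidates. The symbol prefixes removed 6 genes that were long enough (Cacna1c, Cacna1d, Cacna1e, Grin2b, Gabrb1 and Kcnj6), and the count minimum removed 12. All 200 passed the filter on low counts of the tests below. The symbols Kmt2c, Lcor and Mycbp2 stand for more than 1 gene of the annotation.

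The samples were hypothalami of 65 adult male Wistar rats, an outbred strain, with 1 library per animal. The paper describes a high-fat diet to induce obesity in its rats before they were randomized. Whether the lean animals had received it too is not given by the labels. After the intervention the groups other than BWM and lean chose freely between high- and low-fat diet. They comprised 14 RYGB-treated animals (Roux-en-Y gastric bypass, labelled Bypass), 11 sham-treated animals, 7 BWM animals (sham-treated and food-restricted to follow the body weight of the RYGB group), 6 lean animals, taken here to be those given low-fat diet only, 8 saline-treated animals, 4 treated with PYY3-36 at 0.1 mg/kg/day, 5 treated with liraglutide at 0.4 mg/kg/day and 10 treated with both (PYY3-36 + liraglutide). Tissue was taken 4 weeks after the intervention, after 10 h of fasting. The labels divide the animals into batch A (37) and batch B (28), which also differed in library size, at about 285 bp in A and 335 bp in B. RYGB (11 in A and 3 in B), sham (5 and 6), saline (3 and 5) and PYY3-36 + liraglutide (5 and 5) lay in both batches. BWM and lean animals lay in batch A only, and PYY3-36 and liraglutide animals in batch B only, so in these groups treatment and batch cannot be told apart except through the shared groups. Libraries held 20041010 to 36539941 counts. Depth was lower in batch B (median 23386048 against 29571658), and mitochondrial rRNA and tRNA took a larger share of counts there (median 1.39% against 0.848%).

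A messenger RNA is sequenced as fragments, so a gene with more exonic sequence yields more reads at the same number of transcripts. Levels of long and short genes are therefore commonly set side by side as a check on comparisons between libraries. In the brain, genes of this kind encode giant proteins, such as cytoskeletal linkers, ubiquitin ligases, chromatin regulators and adhesion receptors, or carry long untranslated ends. Here 93 of the 200 genes fell into 14 lists of such roles and 107 into none. Per kb of exon the long genes were not abundant, with a median over genes of 84.4 mean counts per kb compared with 246.62 over all candidates, although their median count per library was larger (1363 against 795.1).

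Properties that the choice did not use also set the long genes apart. Their median span on the chromosome, introns included, was 170.5 kb, compared with 22.9 kb over all candidates and 1.4 kb over the 200 candidates with the smallest combined exon length (at most 538 bases), which serve below as the short genes. The short genes held 31 symbols of cytosolic ribosomal proteins and 23 of respiratory chain subunits, and the long genes held 0 of either. In the RefSeq table for the newer rat assembly GRCr8, 198 of the 200 were found, with a median of 11 transcripts per gene compared with 3 over all candidates. They lay on every chromosome from 1 to 20 and on X, with the largest number (23) on chromosome 1.

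The upstream sequence was available for 157 of the long genes in the RefSeq promoter table (GRCr8). Over the 250 bases before the start, median GC content was 61.2%, compared with 60% over candidates. The TATA box TATAAA, searched on the given strand, was found in 4.46% of these windows, the motif CCAAT, searched on both strands, in 29.3% and the GC box GGGCGG, searched on both strands, in 50.3%. Over candidates these shares were 4.21%, 35.0% and 57.9%, and over all 27457 promoters 8.38%, 34.3% and 32.4%. The windows below belong to the long genes with the smallest p in each direction of RYGB vs. sham and of batch B vs. batch A, among those with an entry, and are shown because the results below turn on these genes. Capitals mark the motifs (ATTGG and CCGCCC are their reverse strand). The coordinates are chr1:179665372-179665621 (minus strand) for Sox6, chr10:28656744-28656993 (plus) for Pwwp2a, chr10:14078429-14078678 (plus) for Pkd1 and chr9:23704164-23704413 (minus) for Supt3h.
Sox6: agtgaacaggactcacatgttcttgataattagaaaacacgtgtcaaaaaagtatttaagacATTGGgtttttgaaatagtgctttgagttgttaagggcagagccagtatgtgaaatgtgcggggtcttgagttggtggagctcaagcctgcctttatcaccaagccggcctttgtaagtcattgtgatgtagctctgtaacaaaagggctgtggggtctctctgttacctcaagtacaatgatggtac
Pwwp2a: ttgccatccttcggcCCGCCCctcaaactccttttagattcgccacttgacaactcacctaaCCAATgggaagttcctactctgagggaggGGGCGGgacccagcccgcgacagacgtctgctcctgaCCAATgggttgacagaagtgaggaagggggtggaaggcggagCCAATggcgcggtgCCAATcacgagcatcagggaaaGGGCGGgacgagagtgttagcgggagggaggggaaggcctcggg
Pkd1: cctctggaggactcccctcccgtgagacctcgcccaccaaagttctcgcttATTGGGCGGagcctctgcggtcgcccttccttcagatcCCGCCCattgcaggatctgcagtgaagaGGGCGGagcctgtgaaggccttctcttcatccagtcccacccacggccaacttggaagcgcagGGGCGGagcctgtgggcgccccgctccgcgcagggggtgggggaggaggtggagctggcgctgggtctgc
Supt3h: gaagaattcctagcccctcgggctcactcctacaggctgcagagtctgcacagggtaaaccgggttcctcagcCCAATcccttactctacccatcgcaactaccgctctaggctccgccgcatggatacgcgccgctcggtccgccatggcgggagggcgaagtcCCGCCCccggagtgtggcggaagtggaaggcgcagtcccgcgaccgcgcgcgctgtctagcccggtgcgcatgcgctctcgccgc
The windows of Pwwp2a, Pkd1 and Supt3h were GC-rich (61.2%, 67.2% and 67.2%), with 3, 4 and 1 GC boxes. In Pkd1 the first GC box overlaps an ATTGG by 2 bases. The Sox6 window had 42.8% GC and no GC box. These matches describe letters in a window only.

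The long genes took a smaller share of each library in batch B than in batch A. Their counts made up 1.86% ± 0.226 of a library in batch A (SD, n = 37) and 1.45% ± 0.127 in batch B (n = 28). On the scale used below, the mean over the 200 genes of log2(TMM-scaled CPM + 1), where CPM is the count of a gene scaled to the depth of its library, the level per animal averaged 5.61 ± 0.156 in A and 5.33 ± 0.0979 in B. In sham-treated animals it ran from 5.36 to 5.75 in batch A and from 5.06 to 5.35 in batch B, barely without overlap. Without TMM scaling the sham batches overlapped (lowest 5.322 in A, highest 5.324 in B). Their shares of counts on the long genes overlapped as well (lowest 1.478% in A, highest 1.516% in B). The level was apart between batches in saline-treated animals (5.602 to 5.63 against 5.17 to 5.37) and in PYY3-36 + liraglutide-treated animals (5.56 to 5.83 against 5.24 to 5.50). In RYGB-treated animals, 10 of the 11 animals of batch A lay above all 3 of batch B (5.35 to 5.42). The remaining one, RYGB replicate 11, stood apart from the other RYGB-treated animals, with the lowest level of all 65 animals (5.05), the smallest share of counts on the long genes (1.11%) and the largest on the short genes (2.39%).

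On this level, the groups overlapped within a batch. In batch A the mean level was 5.50 ± 0.146 in sham (n = 5), 5.56 ± 0.0934 in BWM (n = 7), 5.62 ± 0.207 in RYGB (n = 11), 5.62 ± 0.0130 in saline (n = 3), 5.68 ± 0.156 in lean (n = 6) and 5.69 ± 0.118 in PYY3-36 + liraglutide animals (n = 5). In batch B it was 5.27 ± 0.109 in sham (n = 6), 5.28 ± 0.0745 in saline (n = 5), 5.30 ± 0.108 in liraglutide (n = 5), 5.38 ± 0.0335 in RYGB (n = 3), 5.39 ± 0.0508 in PYY3-36 (n = 4) and 5.39 ± 0.103 in PYY3-36 + liraglutide animals (n = 5). Sham-treated animals were thus at the lower end in both batches, and neighbouring groups in either order differed by less than the larger of their SDs.

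**Figure D1:**
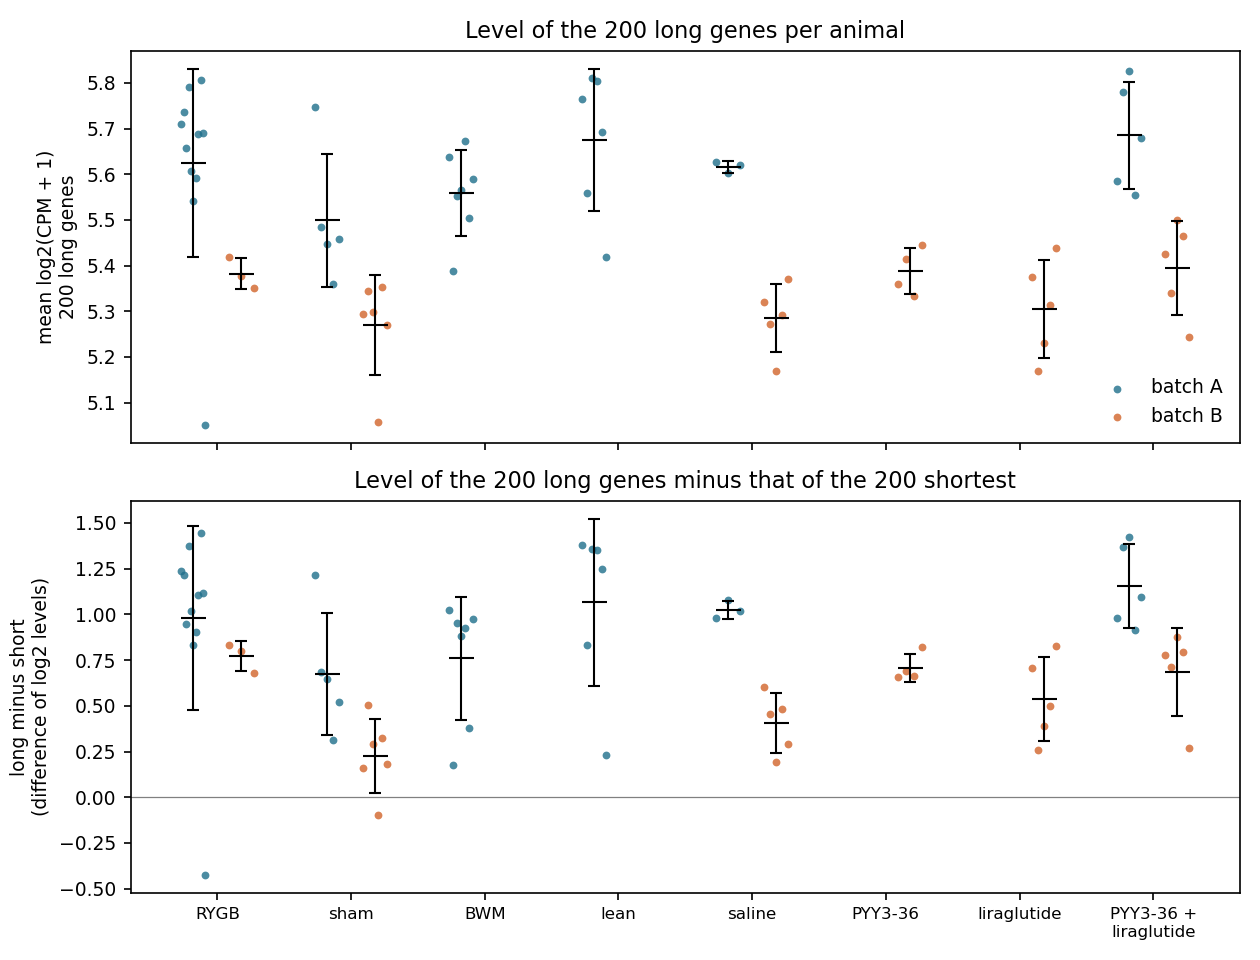
Level of the 200 long genes per animal (upper panel, mean log2(CPM + 1)) and the same minus the level of the 200 shortest candidates (lower panel, difference of log2 levels), by group, with batch A in blue and batch B in orange. Points are animals and bars are means ± SD. In the upper panel batch B lies below batch A in sham, saline and PYY3-36 + liraglutide animals, in the lower panel the sham animals overlap, and RYGB replicate 11 has the lowest values of both panels (5.05 and -0.42).

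The level of the long genes relative to the short ones varied more than the level itself. In batch A the difference between both log2 levels was 0.94 ± 0.404, and in batch B 0.52 ± 0.260. It ran from 0.31 to 1.21 in sham-treated animals of batch A and from -0.10 to 0.51 in those of batch B. In RYGB replicate 11 it was -0.42, while the other animals of batch A ranged up to 1.44 in RYGB replicate 9. Markers of other tissues and cell types went both ways between the batches. Of 12 tested pituitary markers 3 were lower in batch B, of 13 choroid plexus markers 1 and of 14 meningeal markers 1, where 21.4% of all genes were. All 4 hemoglobin and heme genes, 6 of 9 endothelial, 7 of 11 oligodendrocyte and 4 of 11 microglial markers were higher, as were 6 of 10 astrocyte markers, of which 1 was lower, compared with 19.3% of all genes. Summed pituitary markers ranged from 4.70 to 78100 CPM in batch A and from 5.07 to 746 CPM in batch B. None of the marker genes was among the 200. The part of tissue composition, RNA quality (RIN above 7.2 in every sample, per the labels) and depth in the levels was not tested.

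To compare animals gene by gene, 1 model with terms for group and batch was fitted to all 65 libraries with edgeR (quasi-likelihood), and p-values were adjusted by Benjamini-Hochberg over all 21871 genes tested. Between batches, 99 of the 200 long genes were lower in batch B and 8 were higher at an adjusted p under 0.05. Over all genes tested, 21.4% were lower and 19.3% higher. The median log2 fold change of the long genes was -0.28, and that of all genes tested was -0.01. The short genes went the other way, with 89 higher and 18 lower and a median of 0.22. Of the 200 long genes, 100 had a lower group mean in batch B in each of the 4 shared groups, compared with 23.6% of all candidates, and 14 had a higher one in each, compared with 24.6%. Without RYGB replicate 11, the numbers were 102 lower and 9 higher, where 22% of all genes were lower and 22% higher.

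Among the genes lower in batch B, the 8 with the smallest p encoded giant or multidomain proteins. Plec (gene18766, 23208 exonic bases, chr7:117230319-117291859 of Rnor_6.0) encodes plectin, which links intermediate filaments to other parts of the cytoskeleton. In sham-treated animals it had 183, 218, 251, 267 and 312 CPM in batch A, and 108 to 129 CPM (median 124) in the 6 animals of batch B. In saline-treated animals it had 215, 230 and 248 CPM in batch A, and 106, 106, 121, 121 and 133 CPM in batch B. In both groups every animal of batch A was above every animal of batch B. The log2 fold change was -0.98 (SE 0.07, edgeR adjusted p 5.36e-18).

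Kmt2d (gene19266, chr7:140507137-140542479) encodes a histone H3 lysine methyltransferase that marks enhancers. It had 212, 215 and 218 CPM in saline-treated animals of batch A and 83.6, 85.6, 87.7, 93.1 and 99.4 CPM in those of batch B, with a log2 fold change of -1.10 (SE 0.09, edgeR adjusted p 6.14e-14). Pkd1 (gene23298, chr10:13914057-13962008), which encodes the membrane protein polycystin-1, had 205, 221 and 224 CPM against 94.8, 95.1, 98.8, 102 and 110 CPM in the same animals. Both genes separated the batches there without overlap. Pkd1 differed by -0.86 (SE 0.08, edgeR adjusted p 2.1e-13).

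Dnhd1, which encodes a protein with a dynein heavy chain domain, differed by -1.04 on the log2 scale. Mdn1, the ATPase midasin needed for assembly of the large ribosomal subunit, differed by -1.05. Smg1, a kinase of nonsense-mediated mRNA decay, differed by -0.72. Ubn2, a subunit of a histone chaperone complex, differed by -0.70. Whsc1l1, a histone methyltransferase also called NSD3, differed by -0.49. The adjusted p of these 5 genes in edgeR was at most 1.08e-10. The lowest log2 fold change of all 200 belonged to Hmcn2 (-1.82), a gene of the extracellular matrix that is named because it ends the range.

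The 8 long genes that were higher in batch B showed smaller differences. Supt3h (gene21894, chr9:18249565-18604814), a subunit of the SAGA coactivator complex, had 17.7, 19.3, 19.4, 20.1 and 20.8 CPM in sham-treated animals of batch A and 25.7 to 30.0 CPM (median 26.4) in those of batch B. In saline-treated animals it had 21, 21.2 and 21.7 CPM in batch A and 19.7, 21.7, 22.3, 22.8 and 22.8 CPM in batch B. The batches were apart in sham-treated animals and overlapped in saline-treated ones. The log2 fold change was 0.33 (SE 0.05, edgeR adjusted p 4.77e-07). Jazf1, a zinc finger cofactor of transcription, differed by 0.36, Ssbp2, a cofactor of LIM-domain transcription complexes, by 0.33, and the uncharacterized RGD1560883 by 0.25. Elmo1, a partner of Rac activators, differed by 0.36, Psd3, an exchange factor of ARF6, by 0.31, Pcdha4, a clustered protocadherin, by 0.31 and Adgrl3, the adhesion receptor latrophilin 3, by 0.18. Their adjusted p in edgeR was at most 0.0386.

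**Figure D2:**
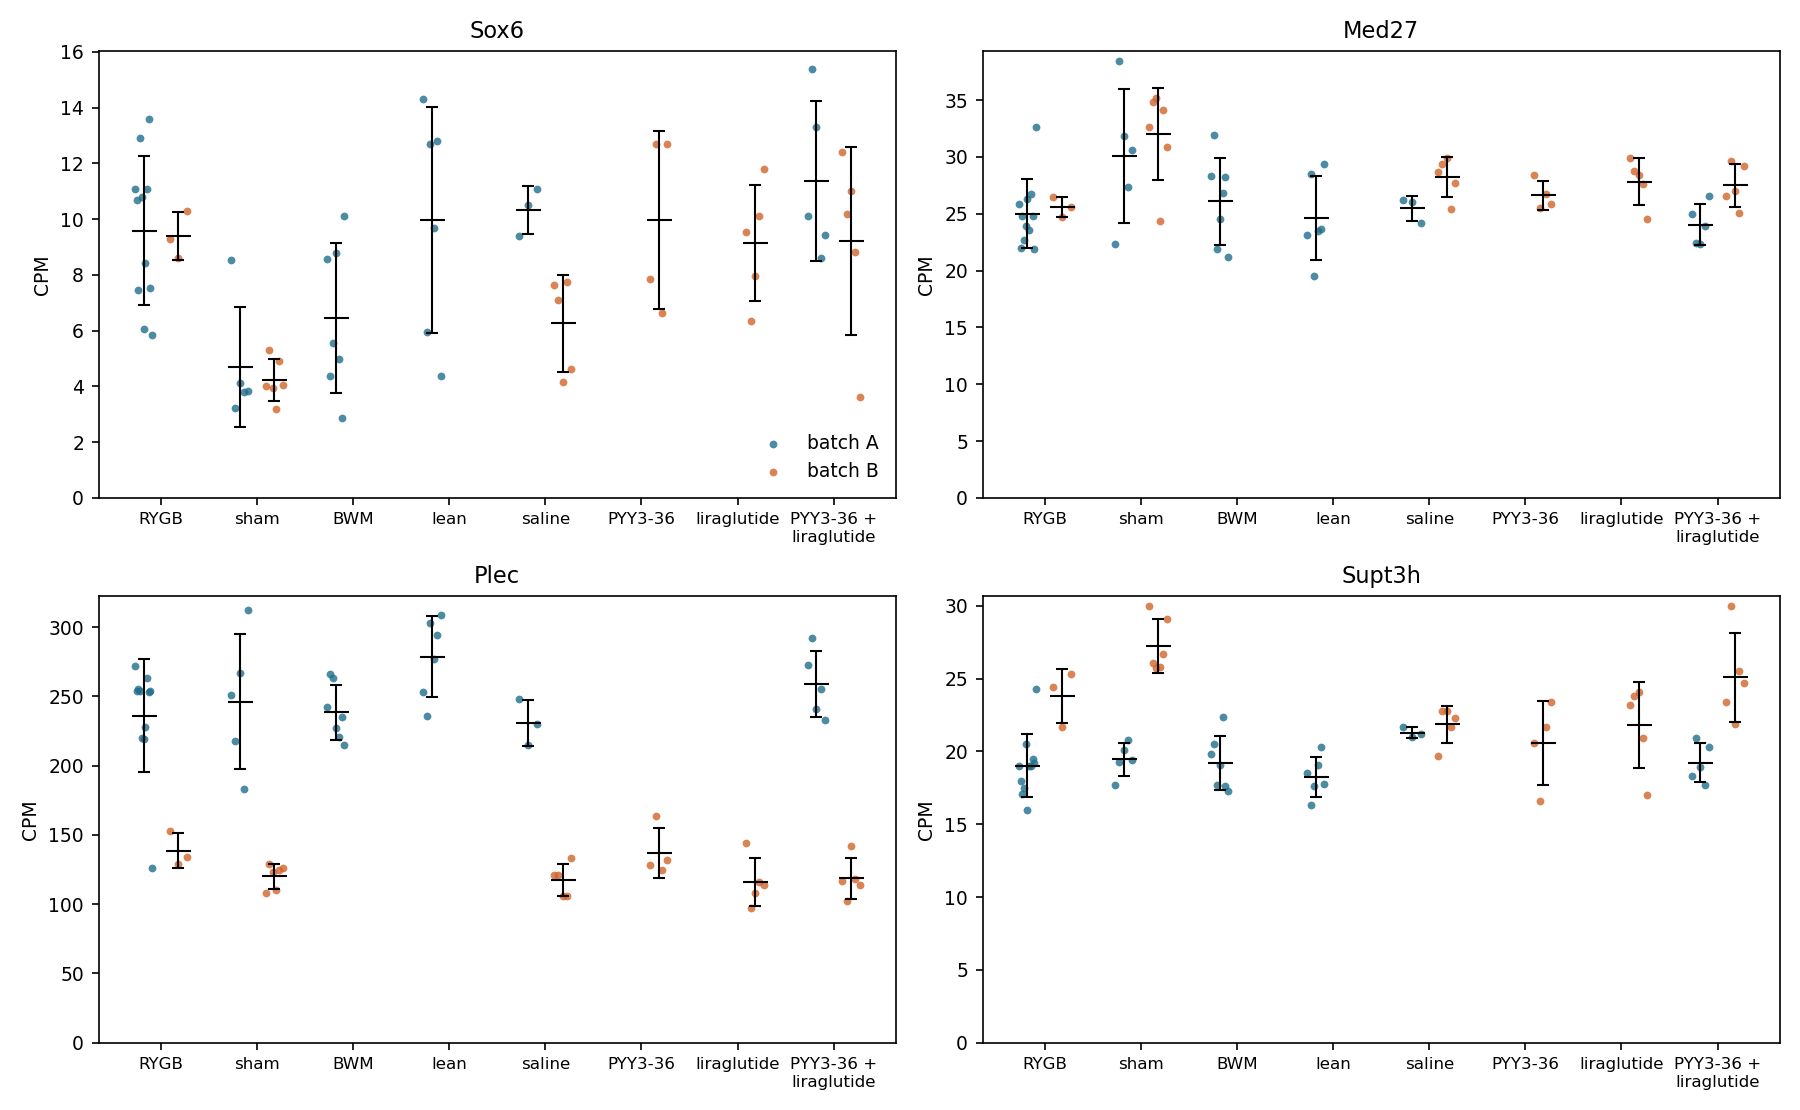
CPM of Sox6, Med27, Plec and Supt3h per animal, by group, with batch A in blue and batch B in orange. Points are animals and bars are means ± SD, with axes from 0. Sham animals have low Sox6 (4.70 CPM on average in batch A and 4.23 in batch B), Plec is lower in batch B in every shared group, and Supt3h is 19.4 CPM on average in sham animals of batch A and 27.2 in those of batch B.

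The role lists differed in how many of their long genes were lower in batch B. All 7 ubiquitin ligases and proteasome cofactors were lower, among them Ubr4 (-0.75), Herc1 (-0.51) and Mycbp2 (gene31580, -0.50). All 6 RNA-binding and translation genes were lower as well, with Son, a splicing cofactor, at -0.40, and all 3 genes of the LDL receptor family, with Lrp1 at -0.32 and Lrp1b at -0.67. Of 9 cytoskeletal linkers 7 were lower, and the giant linkers Dst (-0.65) and Macf1 (-0.61) were among them. Of 16 chromatin and transcription regulators 11 were lower, of 7 kinases 5, of 6 extracellular matrix genes 5, of 5 ion channels and transporters 4 and of 5 trafficking genes 3. In the remaining lists, 1 of 8 motor and cilia genes (Dync1h1, -0.35) was lower, 3 of 8 synaptic genes were lower and 1 higher, 3 of 7 cadherins were lower, 0 of 4 metabolic enzymes passed (edgeR), and of 4 GTPase regulators 0 were lower and 1 higher (Elmo1). Over all genes tested 21.4% were lower, but among the 200 long genes 99 were. Of the 107 long genes in no list, 43 were lower and 6 higher. Among genes of the same lists that were not among the 200, 10 of 27 ubiquitin ligases, 16 of 32 RNA-binding genes, 3 of 15 LDL receptor family genes, 16 of 34 cytoskeletal linkers, 54 of 76 chromatin and transcription regulators and 30 of 49 GTPase regulators were lower. So were 17 of 39 motor and cilia genes, 25 of 55 synaptic genes, 22 of 57 cadherins and adhesion receptors, 16 of 32 trafficking genes, 20 of 39 kinases, 21 of 49 extracellular matrix genes, 15 of 43 ion channels and transporters and 8 of 30 metabolic enzymes. Differences between lists, and between members and other genes of a list, were not tested.

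**Figure D3:**
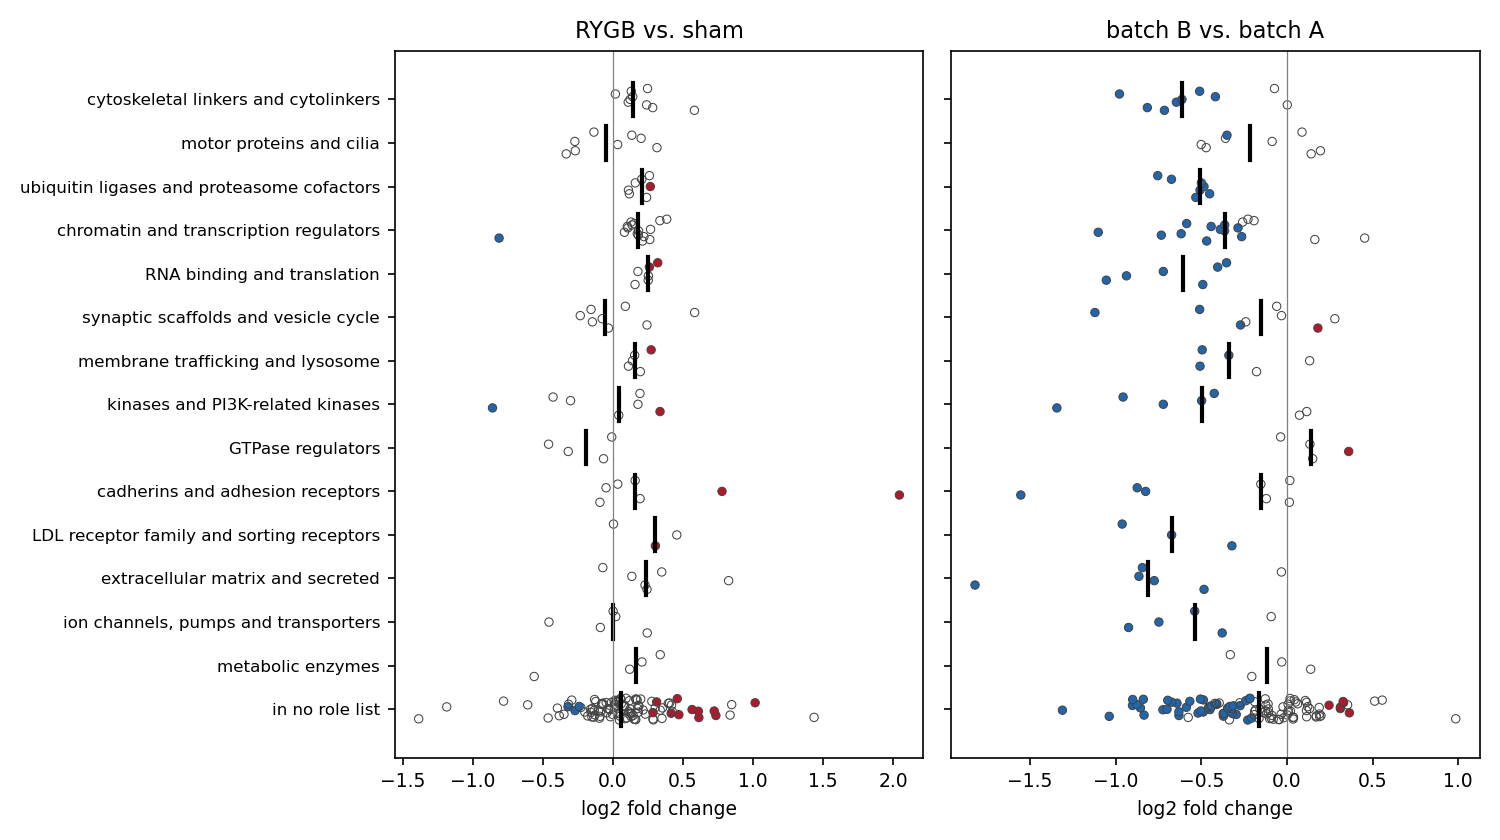
Log2 fold change of each of the 200 long genes in RYGB vs. sham (left) and batch B vs. batch A (right), by role list. Filled points passed the test (red higher, blue lower), open points did not, and black bars are medians of a list. All 7 ubiquitin ligases and all 6 RNA-binding genes are lower in batch B.

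Across all 14255 candidates, divided into 10 equal classes by exon length, the fold change between batches followed length. From the shortest class of genes (156 to 1188 bases) to the longest (7526 bases and more), the median log2 fold change of batch B vs. batch A fell from 0.20 to -0.19, and the share of genes called lower rose from 8.49% to 42.8% while the share called higher fell from 43.3% to 6.45%. The slope was -0.0981 on the log2 scale per doubling of length (Spearman's rho -0.322 across genes, which share libraries and are not independent). Longer genes also had more counts (median over genes of 681.3 in the shortest and 1139 in the longest class). When the counts of each gene were thinned to what 2 kb of exon would give, 199 of the long genes could be tested, and 96 were lower and 5 higher in batch B. When a trend of expression over length was removed from each library, 47 were lower and 51 higher, with a median of 0.01. That removal uses the same length by which the genes were chosen. The small median therefore follows from the removal itself. The shares of all genes called after thinning and after the removal are not given. These counts and their split by direction are therefore not read as a trait of the long genes. Of the 99 genes, 47 were still called lower. Plec (-0.64), Kmt2d (-0.77) and Pkd1 (-0.57) were among these 47.

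**Figure D4:**
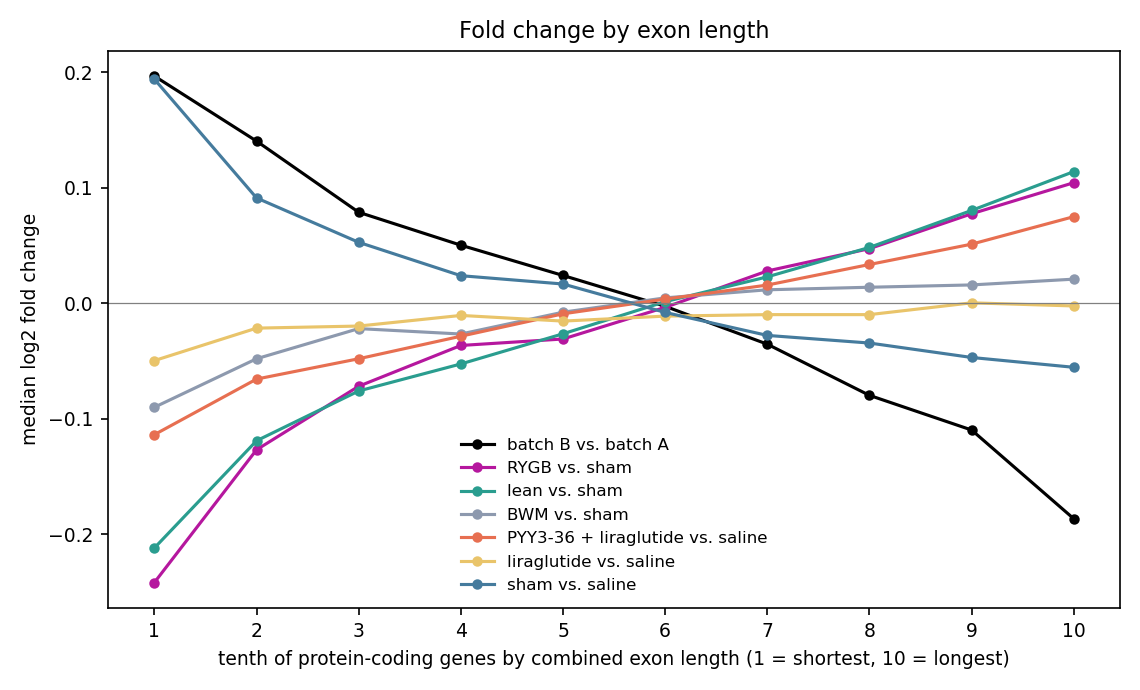
Median log2 fold change in 10 equal classes of 14255 protein-coding genes by combined exon length (1 = shortest, 10 = longest), for 7 comparisons. Batch B vs. batch A falls from 0.20 to -0.19, RYGB vs. sham rises from -0.24 to 0.10, and liraglutide vs. saline stays between -0.05 and 0.00.

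The comparison of RYGB-treated with sham-treated animals asks how bypass surgery changes hypothalamic expression. In it, 19 of the 200 long genes were higher in RYGB-treated animals and 5 were lower. Over all genes tested, 6.52% were higher and 6.53% lower. The median log2 fold change was 0.12 over the long genes, -0.02 over all genes tested and -0.34 over the short genes, of which 4 were higher and 59 lower. Few markers of other tissues passed the test in the same comparison. Of 13 choroid plexus markers 2 were higher (median log2 fold change 1.35). In edgeR 0 of 14 meningeal markers (median 1.37) and 0 of 9 striatal markers (median -1.14) passed. Summed meningeal markers ran from 143 to 4270 CPM (median 443) in RYGB-treated and from 92.4 to 1340 CPM (median 157) in sham-treated animals. With scores of pituitary, choroid plexus and meningeal markers as covariates, 14 of the 19 higher and 3 of the 5 lower genes kept their call. With an additional threshold of 1 on the absolute log2 fold change, 2 long genes were left, Sox6 and Fat2, compared with 2.37% of all genes tested. In the same way 8 long genes differed by more than 1 between batches, all of them lower in batch B, where 5% of all genes did.

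Sox6 (gene3220, 22900 exonic bases, chr1:185631702-186186192) encodes a transcription factor that holds back the maturation of oligodendrocyte precursors. In batch A it had 5.84 to 13.6 CPM (median 10.7) in the 11 RYGB-treated animals and 3.24, 3.79, 3.82, 4.13 and 8.52 CPM in the sham-treated ones. In batch B it had 8.59, 9.29 and 10.3 CPM in RYGB-treated animals and 3.19 to 5.30 CPM (median 4.02) in the 6 sham-treated ones. The groups did not overlap in batch B, and 1 sham-treated animal of batch A lay within the RYGB range. Sox6 rose by 1.02 on the log2 scale (SE 0.20, edgeR adjusted p 0.0016). In saline-treated animals it had 9.41, 10.5 and 11.1 CPM in batch A and 4.15, 4.63, 7.11, 7.65 and 7.76 CPM in batch B, and the log2 fold change of sham vs. saline was -0.81, which did not pass the test (edgeR adjusted p 0.179).

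Bmpr1b (gene7543, chr2:247392195-247662026), a receptor of bone morphogenetic proteins, had 10.8 to 18 CPM (median 14.6) in RYGB-treated animals of batch A and 6.65, 6.67, 9.87, 10 and 13.6 CPM in sham-treated ones. In batch B it had 15.8, 17.9 and 19.1 CPM compared with 8.24 to 13.1 CPM (median 10.2). The groups overlapped in batch A and were apart in batch B. Bmpr1b rose by 0.61 (SE 0.14, edgeR adjusted p 0.00504). Ntrk2 (gene32918, chr17:5934651-6245778), the receptor of the growth factor BDNF that restrains food intake through the hypothalamus, rose by 0.34 (SE 0.10, edgeR adjusted p 0.0257). It had 677, 745 and 749 CPM in RYGB-treated animals of batch B, above the 380 to 564 CPM of sham-treated ones, but 367 to 685 CPM compared with 396 to 491 CPM in batch A, where the ranges overlapped.

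The other named long genes that were higher in RYGB-treated animals served different functions. Lrp1, a large endocytic receptor, rose by 0.30 (SE 0.08, edgeR adjusted p 0.0121), with 433 to 785 CPM in RYGB-treated and 465 to 603 CPM in sham-treated animals of batch A, and 548 to 628 compared with 424 to 495 CPM in batch B. Lhfpl2, a membrane protein of the LHFPL family, rose by 0.61, Hdac4, a histone deacetylase that moves between nucleus and cytoplasm, by 0.42, and Lpp, a LIM-domain protein of focal adhesions, by 0.72. Tnrc6b, a component of the microRNA silencing complex, rose by 0.32, Jmy, an actin nucleator, by 0.29, Wdfy3, an autophagy adaptor, by 0.27, and Son by 0.26. Their adjusted p in edgeR was at most 0.0298. Fat2, an atypical cadherin, had the largest log2 fold change of the 200 (2.05), and is named because it ends the range.

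Of the 5 genes that were lower, Med27 (gene7952, chr3:7884793-8059003), a subunit of the Mediator complex, had the smallest p. It had 21.9 to 32.6 CPM (median 24.8) in RYGB-treated and 22.3, 27.4, 30.6, 31.8 and 38.4 CPM in sham-treated animals of batch A, and 24.7, 25.6 and 26.5 compared with 24.4 to 35.2 CPM (median 33.4) in batch B. The ranges overlapped in both batches. Med27 fell by 0.27 (SE 0.07, edgeR adjusted p 0.00972). Purg, a protein that binds purine-rich elements, fell by 0.32, Pwwp2a, a chromatin protein that binds the histone variant H2A.Z, by 0.24, and Foxp1, a forkhead transcription factor, by 0.81. Foxp1 was uneven, with 21.9 to 154 CPM among sham-treated animals of batch B. Its call was lost in 15 of 25 fits that left out 1 animal and in 8 of the 13 other alternatives, and that of Pwwp2a in 9 of 25 and 7 of 13.

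By role, the long genes higher in RYGB-treated animals were 2 of 6 RNA-binding genes (Tnrc6b and Son), 2 of 7 cadherins and adhesion receptors, 1 of 7 ubiquitin ligases, 1 of 5 trafficking genes (Wdfy3), 1 of 7 kinases (Ntrk2), 1 of 3 LDL receptor family genes (Lrp1) and 11 of the 107 in no list. The lower ones included 1 of 16 chromatin and transcription regulators (Foxp1) and 3 of the 107. No long gene of the cytoskeletal linkers (0 of 9), motor and cilia genes (0 of 8), synaptic genes (0 of 8), extracellular matrix genes (0 of 6), ion channels (0 of 5), GTPase regulators (0 of 4) or metabolic enzymes (0 of 4) passed the test in edgeR. With 6.52% of all genes higher, 0 calls in lists of 4 to 9 genes are near the background. Among genes of these lists outside the 200, 2 of 34 cytoskeletal linkers, 6 of 39 motor and cilia genes, 10 of 55 synaptic genes, 6 of 49 extracellular matrix genes, 5 of 43 ion channels, 14 of 49 GTPase regulators and 5 of 30 metabolic enzymes were higher. In the lists with calls, 8 of 32 RNA-binding genes, 10 of 57 cadherins and 7 of 27 ubiquitin ligases outside the 200 were higher. So were 7 of 32 trafficking genes, 6 of 39 kinases and 4 of 15 LDL receptor family genes. Of 76 chromatin and transcription regulators outside the 200, 14 were higher and 1 lower. Members and other genes of a list were not tested against each other. The long genes Dst (0.11), Macf1 (0.12) and Ank2 (0.24) were among those that did not pass. Ank2 was the most abundant of the 200.

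The counts of long genes in RYGB vs. sham depended on batches, controls and animals. Within batch A, 7 were higher (1.42% of all genes tested) and 0 lower (1.01%) in edgeR, and within batch B 22 were higher (6.25%) and 2 lower (5.53%). All 24 genes of the joint model had the same direction in either batch. They were called in the same animals, so this shared direction is not a separate check. The test of the difference between the batches called 0 long genes (0% of all genes, 16 at an unadjusted p under 0.05 in edgeR, with no second tool run). Here and below, numbers at an unadjusted p lack the share of all genes at that threshold. They do not set the long genes apart from other genes. Leaving out RYGB replicate 11 raised the number of higher genes to 42, with 9.9% over all genes, and kept all 19. Leaving out sham replicate 5 gave 8 (4% of the long genes), where 3.71% of all genes were higher. Sham replicate 4 gave 9 (4.61% of all genes), RYGB replicate 14 gave 11 (5%), and RYGB replicate 9 (5.09%), RYGB replicate 13 (4.33%) or sham replicate 2 (5.21%) gave 12 each. The share of all genes called thus fell as well, and without sham replicate 5 the long genes lay near it. The lower genes were 1 without RYGB replicate 12, 13 or 14, 2 without RYGB replicate 5 or 9 or sham replicate 10, and 3 without RYGB replicate 1 or sham replicate 2 or 5, where between 3.01% and 5.93% of all genes were lower. Compared with saline-treated animals, 0 long genes differed from RYGB-treated ones (edgeR, 0.00457% of all genes tested, 3 at an unadjusted p under 0.05, DESeq2 not run on this contrast), with a median of 0.06. The short genes had a median of -0.05 in that comparison.

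In RYGB vs. sham the fold change followed exon length in the opposite direction. The median log2 fold change rose from -0.24 in the shortest to 0.10 in the longest class of candidates, with a slope of 0.0638 per doubling (Spearman's rho 0.293 across genes). The share of genes called lower fell from 26.6% to 1.47%, and the share called higher rose from 4.56% to 10.9%. With the length trend removed from each library, 4 long genes were higher and 13 lower, with a median of -0.02 compared with -0.04 over all genes tested. As between batches, the small median follows from the removal itself. The share of all genes called after the removal is not given, so the 4 and 13 are not read as a trait of the long genes. Of the 19 higher genes 4 kept their call then, among them Sox6 (0.88), Bmpr1b (0.48) and Tnrc6b (0.18), and all 19 kept their direction. All 5 lower genes kept their call.

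**Figure D5:**
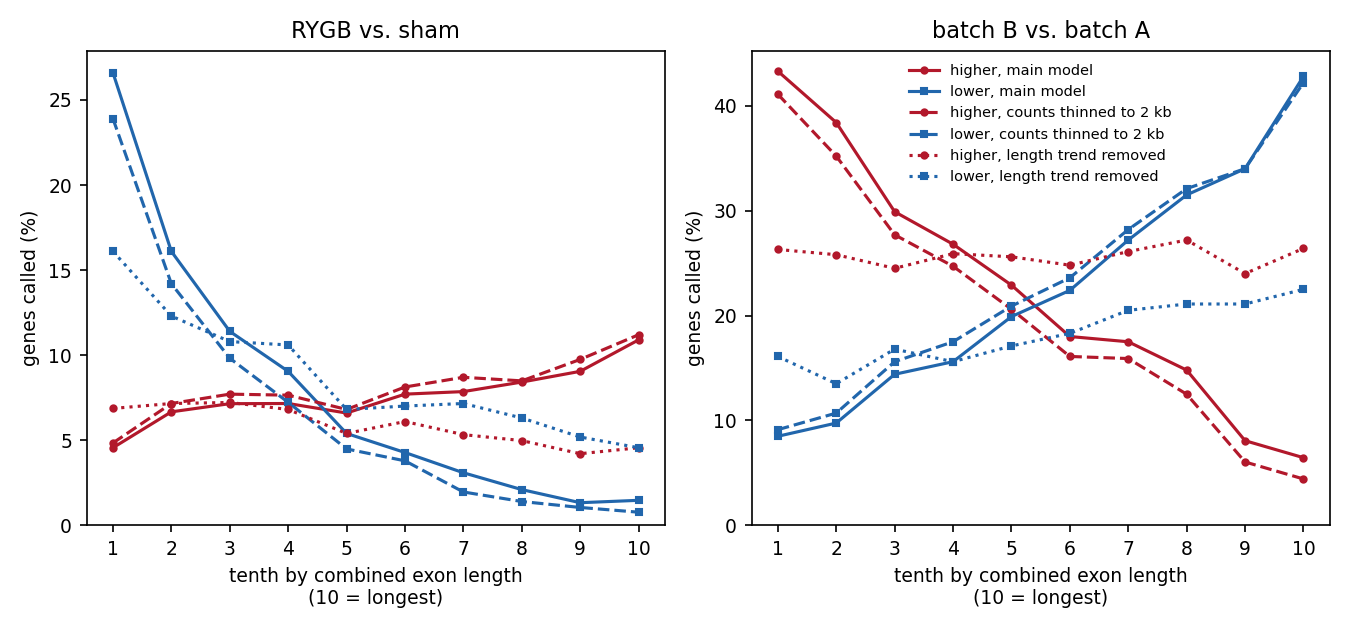
Share of genes called higher (red) and lower (blue) in 10 equal classes of candidates by combined exon length, in RYGB vs. sham (left) and batch B vs. batch A (right), in the joint model (solid), after thinning counts to 2 kb (dashed) and with the length trend removed (dotted). In batch B vs. batch A the share called lower rises from 8.49% to 42.8% with length, and after removal of the trend the longest class has 26.4% higher and 22.5% lower.

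In BWM animals, 1 long gene passed the test compared with sham-treated animals. Svil, which encodes the actin-binding protein supervillin, rose by 1.10 on the log2 scale (edgeR adjusted p 0.0321). It had 23.8 to 74.8 CPM (median 48.7) in the 7 BWM animals and 15.3, 16.3, 16.5, 19.8 and 23.0 CPM in sham-treated animals of the same batch, without overlap, and 11.1 to 34.0 CPM in those of batch B. Over all genes tested, 0.311% were higher and 0.00914% lower. The call was lost when any of 10 of the 18 animals was left out (BWM replicates 5 and 7 and sham replicates 1 to 5 and 7 to 9). Without BWM replicate 1, 4 long genes were higher and 2 lower, where 1.56% of all genes tested were higher and 0.307% lower. Without BWM replicate 2, 3 were higher, where 0.787% of all genes were. Within batch A, 6 were higher, compared with 1.3% of all genes tested. Summed pituitary markers reached 78100 CPM in 1 BWM animal, and 5 of 12 pituitary markers were higher in BWM than in sham-treated animals. The median log2 fold change of the long genes was 0.00 (all genes tested 0.00, short genes -0.09). This comparison and those of RYGB-treated and lean animals share the sham controls.

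In lean animals, 0 of the long genes passed the test compared with sham-treated animals (edgeR, 0% of all genes tested, 32 long genes at an unadjusted p under 0.05, and 1 in DESeq2). The share of all genes at an unadjusted p is not given, so the 32 are not read as a trait of the long genes. Their median was 0.13, that of the short genes -0.31, and the slope per doubling of length 0.0727. Without lean replicate 6, which had the lowest long gene level of the group (5.42), 11 long genes were higher and 1 lower, where 2.3% of all genes tested were higher and 2.65% lower. Without sham replicate 1 these numbers were 4 and 1, where 1.19% of all genes were higher and 0.183% lower. Between RYGB-treated and BWM animals, 0 long genes differed (edgeR, 0.343% of all genes tested, 32 at an unadjusted p under 0.05, and 0 in DESeq2), with medians of 0.10 for the long and -0.25 for the short genes. Leaving out 1 animal called at most 2, as without RYGB replicate 3, where 0.6% of all genes tested were lower.

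Gut hormone treatment called 0 of the long genes in any of its 3 comparisons with saline. The median log2 fold change was 0.02 with PYY3-36 (edgeR, 0% of all genes tested, 13 long genes at an unadjusted p under 0.05, and 0 in DESeq2), -0.01 with liraglutide (0% of all genes, 0 long genes at an unadjusted p under 0.05 in edgeR, and 0 in DESeq2), and 0.09 with PYY3-36 + liraglutide (0.00457% of all genes, 5 long genes at an unadjusted p under 0.05 in edgeR, and 0 in DESeq2). The short genes had medians of -0.22, -0.06 and -0.18. With the combination, 149 of the 200 long genes had a log2 fold change above 0, and 182 of the 200 short genes one below 0. The genes share libraries, so they are not independent, and these counts of signs were not tested. Over all candidates the fold change with the combination also followed length, with a slope of 0.0456 per doubling. The difference of this comparison between batches called 0 long genes (edgeR, 0% of all genes, 15 at an unadjusted p under 0.05, with no second tool run).

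Sham-treated and saline-treated animals were both obese controls without bypass or hormones. Of the long genes 0 passed the test (edgeR, 0.0137% of all genes tested, 14 at an unadjusted p under 0.05, and 0 in DESeq2), with a median of -0.05. The short genes had a median of 0.27 and the slope per doubling of length was -0.0489. Compared with sham in place of saline, 23 long genes (11.5%) were higher and 1 (0.5%) lower with PYY3-36 + liraglutide, where 6.66% of all genes tested were higher and 8.07% lower. With PYY3-36, 7 (3.5%) were higher and 4 (2%) lower, where 4.09% and 4.26% of all genes were, so the share higher was no larger than over all genes. With liraglutide 1 was higher and 0 lower (edgeR), where 0.096% and 0% of all genes were. The 3 hormone comparisons share the saline controls. Sham-treated animals had the lowest mean level of these genes in each batch.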

How the data were processed

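RNA of hypothalamus was measured in 65 rats. The authors captured poly-A RNA, made stranded libraries, trimmed single-end reads with cutadapt, mapped them with STAR 2.7.2b to Rnor_6.0 and counted them by strand on exons of the RefSeq annotation with featureCounts 1.6.4. The deposited values are estimated counts per gene, with reads on several places or genes shared out as fractions (30.3% of nonzero values were not whole), which splits reads between near-identical genes. Counts were rounded, filtered with filterByExpr (minimum count 10, minimum total 15), scaled by TMM and fitted with edgeR 4.0.16 (R 4.3.3) with group and batch terms. DESeq2 1.42.0, 2 other scalings, no filter, protein-coding genes only, no batch term, marker scores as covariates (pituitary, choroid plexus, meninges), a replicate block, a fitted length trend used as offset, thinning to 2 kb, single batches, other controls, other list sizes and leaving out each animal were the alternatives. The tests were tried on simulated counts first. As to pairing, same-numbered saline and liraglutide animals deviated together in all 5 pairs (r 0.32 to 0.61). Animals of different numbers were not compared, so pairing by number was not shown. Of these saline animals 3 are of batch A, while all liraglutide animals are of batch B. In no other comparison did all same-numbered pairs deviate together. Named were the 8 called genes with the smallest p in each direction for RYGB, BWM, lean, sham vs. saline and batch, 2 elsewhere, the 10 longest, ranks 200 and 201, and the 2 most abundant of each role list. Role and marker lists were written from general knowledge, and members and lists were chosen with earlier results of these data known. Replicates are animals. Tables and plots used Python 3.11.15, pandas 2.3.3 and numpy 2.4.6. Each long gene had a mean of at least 72.4 counts per library, and single libraries held fewer of the rarer ones. An alternative that split genes by protein length was not run. One gene that met the naming rule is not reported here.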

Additional observations from a re-analysis of the deposited data

Results flagged for a closer look

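In 36 of 360 groups of 4 to 10 animals tested over the named genes and the levels per animal, 1 animal lay far from the others. For independent, normally distributed values about 1 in 20 groups would be flagged. These groups share animals between genes, so no excess over chance is read from the 36. BWM animals had the largest number of these flags. BWM replicate 1 had the highest CPM of its group in Foxp1 (97.3, next 34.2), Ssbp2 (180, next 106), Pcdha4 (174, next 85.9), Psd3 (275, next 186), Rai1 (109, next 72.0), Fam110b (123, next 41.5), Dlg2 (330, next 148), Arhgap32 (389, next 140) and Ryr2 (211, next 127). BWM replicate 5 was highest in Kmt2d (409 CPM), Ubn2 (105 CPM) and Esr1, the estrogen receptor alpha (50.9 CPM, next 13.7). BWM replicate 7 was highest in Lhfpl2 (68.2 CPM) and Ahnak2 (27.7 CPM), replicate 6 in Purg (34.8 CPM), replicate 4 in RGD1560883 (14.5 CPM) and replicate 2 in Ttn (9.22 CPM).

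Among lean animals, replicate 2 was lowest in Mdn1 (52.7 CPM), Macf1 (377 CPM), Ahnak2 (2.29 CPM) and Ubr4 (193 CPM). Lean replicate 6 was lowest in Jmy (26.7 CPM), RGD1560883 (9.29 CPM) and Ank2 (417 CPM), and lean replicate 5 was highest in Elmo1 (258 CPM). With PYY3-36, replicate 4 was highest in Smg1 (148 CPM), Whsc1l1 (85.4 CPM) and Reln (90.9 CPM), and replicate 2 was lowest in Lrp1 (410 CPM) and highest in Pwwp2a (39.2 CPM). With liraglutide, replicate 1 was highest in Lhfpl2 (61.7 CPM), replicate 4 highest in Pwwp2a (33.1 CPM) and replicate 3 lowest in Wdfy3 (122 CPM). With saline, replicate 8 was highest in Foxp1 (83.9 CPM), replicate 4 in Pcdha4 (176 CPM) and replicate 3 in Ttn (4.94 CPM). The causes were not tested.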

How the results depend on the processing

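Values are percent of the 200 long genes called, or their median log2 fold change, and the causes of changes were not tested. The share of all genes called in the same fit is not given, and it can move as well. In RYGB vs. sham, 6.52% of all genes were higher in the joint model and 1.42% within batch A. A changed share is therefore not read as a trait of the long genes. With the length trend removed, small medians follow from the removal itself. In RYGB vs. sham, the share higher (9.5%) became 14.5% with DESeq2, 25.5% without a batch term, 6% with a replicate block, 2% with the length trend removed, 3.5% in batch A, 0% against saline and 1% with a log2 fold change over 1. The share lower (2.5%) became 1% without a filter, 4.5% without a batch term, 1.5% with marker scores, 0% with the replicate block, 6.5% with the length trend removed, 1.01% after thinning, 0% in batch A, 1% in batch B, 0% against saline and 0% with a log2 fold change over 1. Between batches, the share higher (4%) became 2% with the replicate block, 25.5% with the length trend removed, 2.51% after thinning and 0% with a log2 fold change over 1. The share lower (49.5%) became 22.5%, 23.5% and 4% with the block, without the trend and over that fold, and the median was 0.01 with the trend removed, where Ank2 changed sign (0.03). In BWM vs. sham, the share higher (0.5%) became 1.5% with DESeq2, 10% without a batch term, 0% with marker scores, 0% with the replicate block, 3% in batch A, 0% against saline and 1% of the 100 longest. The share lower became 2% without a batch term and 0.25% of the 400 longest, and the median 0.13 without a batch term. In lean vs. sham, 0.5% were higher with DESeq2, and without a batch term 16% were higher and 1% lower with a median of 0.30, while the median was -0.05 with the trend removed. In RYGB vs. BWM, 1% were lower with the trend removed, and 0.25% higher and 0.25% lower of the 400 longest. The median with PYY3-36 was -0.10 without a batch term, 0.09 with marker scores, -0.07 with the replicate block, -0.08 with the trend removed and 0.10 against sham, where 3.5% were higher and 2% lower. With liraglutide the median was -0.13 without a batch term, and 0.5% were higher against sham. With PYY3-36 + liraglutide the median was -0.03 with the trend removed, and against sham 11.5% were higher and 0.5% lower. The replicate block called 0 long genes with liraglutide, where same-numbered animals deviated together, as did the joint model.

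Leaving out each animal in turn gave 4% to 21% higher, 0.5% to 3.5% lower and medians of 0.10 to 0.15 in RYGB vs. sham, 0% to 2%, 0% to 1% and -0.04 to 0.03 in BWM vs. sham, 0% to 5.5%, 0% to 0.5% and 0.10 to 0.18 in lean vs. sham, and 0% to 0.5%, 0% to 1% and 0.06 to 0.16 in RYGB vs. BWM. It called 0% with any hormone, with medians of -0.02 to 0.08 (PYY3-36, highest without saline replicate 4), -0.03 to 0.03 (liraglutide) and 0.07 to 0.11 (PYY3-36 + liraglutide). In sham vs. saline it gave 0% higher, 0% to 0.5% lower (1 gene, without sham replicate 1) and -0.06 to -0.03, and between batches 3.5% to 6.5% higher (13 genes without sham replicate 2), 47% to 51% lower and -0.30 to -0.24. Over all genes tested, the same fits gave 3.71% to 9.9% higher and 3.01% to 12.7% lower in RYGB vs. sham. The share of all genes higher was 0.0229% to 1.56% in BWM vs. sham and 0% to 2.3% in lean vs. sham. Between batches, 17.8% to 22% of all genes were higher and 19.8% to 22% lower.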
